A study of Homo sapiens with 2 samples.

Results

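The genes described here are cyclins, cyclin-dependent kinases (CDKs), their inhibitors and the closest regulators of the cell cycle in OAW42-R and OAW42, a pair of human ovarian carcinoma cell lines. A list of 58 gene symbols was taken, a gene was kept where a transcript cluster (the set of array probes summarised as 1 value) named it alone, and the brightest cluster stood for a gene with several. This gave 56 genes of the 22348 named genes on the array; the signals of CDK9 and CDKN2C were not analysed here. The rule used names and mean signal, not the difference between the lines, but the list was drawn up with earlier results of these data known.

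OAW42-R is resistant to cisplatin and was derived from OAW42, which is sensitive, by rising cisplatin exposures with recovery in between; whether it is 1 clone is not given in the sources used here. Both lines were grown without drug in the same DMEM medium with serum and insulin, and total RNA of each was hybridised to 1 Affymetrix HTA whole-transcript array. Because each line has a single array, the spread between cultures is unknown and nothing below is tested, and the line cannot be told apart from the state of its culture, such as density or growth phase. Values are log2 signals after robust multi-array averaging (RMA), each difference is the OAW42-R value less the OAW42 value in log2 units, and folds are the same differences on a linear scale. The median over all transcript clusters was 6.34 on the OAW42-R array and 6.30 on the OAW42 array. A gene was taken as above the floor where its brighter array reached that array's median, which 15910 genes did. The labelled tissue was checked against 14 serous ovarian carcinoma markers, all above the floor, with a median difference of 0.06. The Müllerian transcription factor PAX8 read 11.67 in OAW42-R and 11.40 in OAW42, and the keratin KRT8 10.49 and 10.42. WT1 and MUC16 stayed within 0.6 of the array medians in both lines. The others were mixed, from WFDC2 (6.91 in OAW42-R and 6.96 in OAW42) to CLDN3 (10.88 and 10.79). The largest difference in size was that of EPCAM (0.67). Of markers of other cells, 3 of 6 measured for fibroblasts and 3 of 5 for leukocytes were above the floor. So were 3 of 5 for endothelial cells and 3 of 4 for mesothelial cells, beside 15910 of all 22348 named genes. The pan-leukocyte gene PTPRC was below the floor (4.21 in OAW42-R and 4.25 in OAW42). The median differences of these 4 marker lists were -0.03, -0.02, 0.00 and 0.39 in that order. The last rests on LRRN4 (0.91), DES (0.39) and UPK3B (0.00, with 11.38 in both lines). Any part of the mesothelial genes in the results was not tested.

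Cyclins bind CDKs and switch them on in turn. D-type cyclins with CDK4 or CDK6 and then E-type cyclins with CDK2 phosphorylate the retinoblastoma (RB) proteins in G1, which frees E2F transcription factors to switch on the genes of S phase, and A- and B-type cyclins with CDK1 and CDK2 carry the cell through S phase and into mitosis. INK4 and CIP/KIP proteins inhibit these kinases, WEE1 and CDC25 proteins set their inhibitory phosphorylation, and SKP2 marks an inhibitor for destruction. Another branch of the family, with CDK7, CDK8, CDK9, CDK12, CDK13 and CDK19 and cyclins C, H, K, L and T, acts mainly on RNA polymerase II.

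OAW42-R had a 4.20-fold lower signal for CCNA1, which encodes cyclin A1, a cyclin best known from male germ cells, and this was the only gene of the family at 2-fold or more. The kinase gene CDK17 was 1.56-fold lower, and no member was as much as 1.5-fold higher. Among the core genes, the D-type cyclins, CDK1, CDK2, CDK4, RB1 and the measured inhibitors all lay within 0.2 of equality, while cyclin E1 was 1.45-fold lower. The inhibitor gene CDKN1A (p21) was not on the list. Of the 55 members above the floor, 38 were lower in OAW42-R, 16 were higher and 1 was equal.

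These counts were set beside all 15910 genes above the floor. At least 2-fold lower were 1 of 55 members, against 0.333% of all genes, and at least 2-fold higher were 0 members, against 0.541%. At 1.5-fold, 2 members were lower, against 1.31% of all genes, and 0 were higher, against 2.02%. Within 1.5-fold either way were 96.4% of members and 96.7% of all genes. The share of members lower by any amount was 69.1%, against 49.7% of all genes, and the share higher by any amount was 29.1%, against 46.6%. The median difference was -0.07 for members and 0.00 for all genes, and the quartiles of the differences ran from -0.23 to 0.03 for members and from -0.10 to 0.11 for all genes. The family therefore leaned lower by a small amount, with no error against which to judge it. In such bulk RNA, fewer cells in a phase of the cycle and less RNA per cell cannot be told apart.

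**Figure D1:**
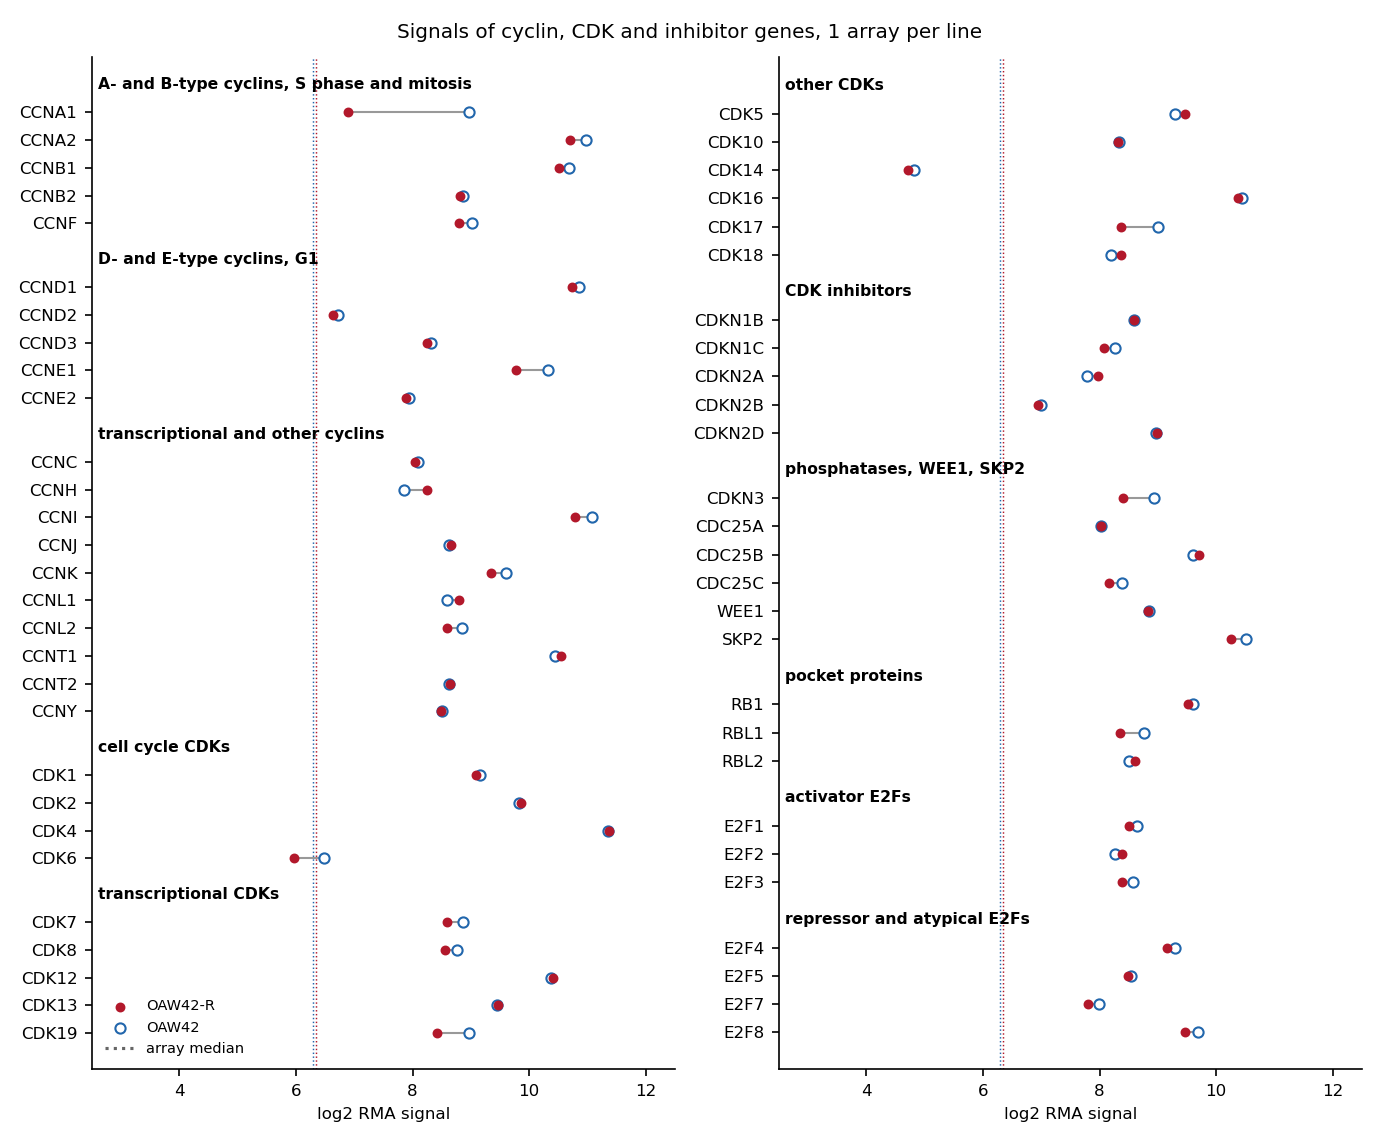
Log2 RMA signal (horizontal axis) of the 56 measured genes in OAW42-R (filled red) and OAW42 (open blue), 1 array per line, grouped by role, with dotted lines at the array medians of 6.34 and 6.30. The points of most genes nearly coincide, and CCNA1 shows the widest gap, at 6.89 in OAW42-R and 8.96 in OAW42.

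The start regions of 4 members are shown because CCNA1 stood apart from its close relative CCNA2, with CCNB1 and CDKN3 as examples of windows with matches. Such matches are not particular to these genes, since 26 of the 50 listed genes with a start window held the letters CCAAT. Each sequence runs 5′ to 3′ from 250 bases before to 50 bases after the RefSeq gene start on GRCh38.p14, with capitals for a match on either strand. The letters searched were CCAAT for the CCAAT box, and for the cell cycle homology region the form TTTGAA and another form, TTCGAA. For an E2F site they were TTCCCGC as well as the variant TTCGCGC, then the variant TTGCCGC, and lastly the variant TTGGCGC. Other forms of these sites were not searched, so a window without a match may still hold one. The CCNA1 window is chr13:36431705-36432004 on the plus strand, that of CCNA2 chr4:121823834-121824133 on the minus strand, that of CCNB1 chr5:69166900-69167199 on the plus strand and that of CDKN3 chr14:54396757-54397056 on the plus strand.
CCNA1: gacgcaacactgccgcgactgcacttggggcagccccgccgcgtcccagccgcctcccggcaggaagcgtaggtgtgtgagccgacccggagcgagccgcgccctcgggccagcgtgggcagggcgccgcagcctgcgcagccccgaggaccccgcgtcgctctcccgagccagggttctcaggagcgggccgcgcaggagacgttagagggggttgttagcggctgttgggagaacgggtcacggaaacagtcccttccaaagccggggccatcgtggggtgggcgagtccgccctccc
CCNA2: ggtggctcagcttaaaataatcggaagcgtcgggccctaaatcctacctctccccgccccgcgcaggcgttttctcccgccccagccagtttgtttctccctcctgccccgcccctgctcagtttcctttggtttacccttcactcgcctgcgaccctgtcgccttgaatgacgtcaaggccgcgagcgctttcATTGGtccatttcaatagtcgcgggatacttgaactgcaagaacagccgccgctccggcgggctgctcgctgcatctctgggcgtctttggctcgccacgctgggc
CCNB1: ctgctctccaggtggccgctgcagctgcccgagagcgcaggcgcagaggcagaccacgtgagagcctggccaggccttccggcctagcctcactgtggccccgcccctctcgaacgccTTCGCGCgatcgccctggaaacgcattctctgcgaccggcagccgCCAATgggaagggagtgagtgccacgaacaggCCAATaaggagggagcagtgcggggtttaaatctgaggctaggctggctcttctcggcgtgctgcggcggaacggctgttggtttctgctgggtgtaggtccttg
CDKN3: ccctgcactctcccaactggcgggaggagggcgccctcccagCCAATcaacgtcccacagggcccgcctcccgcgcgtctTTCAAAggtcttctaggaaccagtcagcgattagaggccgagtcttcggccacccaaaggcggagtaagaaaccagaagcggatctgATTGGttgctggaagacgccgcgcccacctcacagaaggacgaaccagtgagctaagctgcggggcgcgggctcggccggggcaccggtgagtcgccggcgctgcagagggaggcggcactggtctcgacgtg

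CCNA1 had none of these letters in its window, which was 72.7% G and C with 35 CpG dinucleotides, against 61.0% and 26 for CCNA2. CCNA2 had 1 inverted CCAAT box at -56, counted in bases from the start, and no other match among the letters searched. CCNB1 had CCAAT boxes at -87 and -55 and an E2F match at -132. CDKN3 had a CCAAT box at -208, an inverted one at -83 and inverted cell cycle homology letters at -170.

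RefSeq start windows were found for 50 of the 58 listed genes, CDK9 and CDKN2C among them, and came to 76 windows because some genes have several starts; CCND1, CCND2, CCNE2, CDK2, CDKN1C, E2F5, E2F8 and WEE1 had no match. CCAAT boxes were in 40.8% of these windows, against 34.6% of all 35116 windows, cell cycle homology letters in 17.1%, against 16.4%, and E2F letters in 22.4%, against 13.0%. The E2F letters are rich in G and C, as were the windows of the listed genes, with a median of 63.5% G and C and 26 CpG, against 58.7% and 14 for all windows; the part of composition in the letter shares was not tested. The 11 members above the floor with the cell cycle homology letters searched had a median difference of -0.19, against -0.06 for the 36 without a match. Members with an unsearched form count among those without. With E2F letters the median was -0.10 over 14 members, against -0.06 over 33 without, and with a CCAAT box it was -0.07 over 25, against -0.07 over 22. Short letters match by chance as well as at bound sites, and no binding was measured here.

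Among the cyclins of S phase and mitosis, all 5 genes were lower in OAW42-R, beside 49.7% of all genes. CCNA1 had 6.89 in OAW42-R against 8.96 in OAW42 (difference -2.07). Only 8 of the 15910 genes had a more negative difference. The OAW42-R value lay 0.55 above the array median, and RMA compresses folds at such low signals. CCNA2, the cyclin A of dividing somatic cells, had 10.70 in OAW42-R against 10.98 in OAW42 (difference -0.28). CCNB1, whose protein drives entry into mitosis with CDK1, differed by -0.17 (10.51 in OAW42-R and 10.68 in OAW42), CCNB2 by -0.05, and CCNF, an F-box protein that directs ubiquitination, by -0.23. Apart from cyclin A1, this group stayed within 1.21-fold.

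In G1 all 5 cyclin genes were also lower, 4 of them slightly, beside 49.7% of all genes. CCND1, the D-type cyclin that mitogens induce, had 10.74 in OAW42-R and 10.85 in OAW42, CCND2 had 6.63 and 6.72, and CCND3 had 8.25 and 8.32. These 3 differed by -0.11 to -0.07, and CCND2 lay within 0.5 of the array median in both lines. CCNE1, which with CDK2 drives entry into S phase and is often amplified in serous ovarian carcinoma, had 9.78 in OAW42-R against 10.32 in OAW42 (difference -0.54). CCNE2, the other E-type cyclin, had 7.89 and 7.94. CCNE1 was thus lower by 1.45-fold and CCNE2 nearly equal. The CCNE2 signal was close to that of the fibroblast gene COL1A1 (7.83 in OAW42-R and 7.91 in OAW42), so it does not show that CCNE2 was expressed. The same limit holds for other members near or below this level. Among them were CDC25A (8.02 in OAW42-R and 8.03 in OAW42), CCNC (8.04 and 8.10) and, in OAW42-R, CCNA1 (6.89).

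The kinases that these cyclins activate were close to equal, with 1 exception. CDK1 had 9.09 in OAW42-R and 9.15 in OAW42, CDK2 9.86 and 9.83, and CDK4 11.37 and 11.35. CDK6, which shares the D-type cyclins with CDK4, had 5.96 in OAW42-R against 6.48 in OAW42 (difference -0.52). The OAW42-R value was below the array median and the OAW42 value 0.18 above it, so CDK6 counted as above the floor only through OAW42. The median of these 4 kinases was -0.02.

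The inhibitor genes measured here showed little difference in either direction. CDKN1A (p21), another CIP/KIP gene, was not on the list and was not analysed. The INK4 gene CDKN2A, which encodes p16 and, from another reading frame, ARF, had 7.97 in OAW42-R and 7.78 in OAW42, and a single cluster cannot separate its transcripts. CDKN2B (p15) had 6.95 in OAW42-R and 6.99 in OAW42, and CDKN2D (p19) had 8.99 and 8.96. The levels of CDKN2A and CDKN2B do not show that these genes were expressed. The fibroblast gene COL1A1 read 7.83 in OAW42-R and 7.91 in OAW42, and the endothelial gene CLDN5 8.06 in both lines. CDKN2D lay above both of these marker genes, but its expression was not tested. Of the CIP/KIP genes, CDKN1B (p27) had 8.59 in both lines, and CDKN1C (p57) had 8.08 in OAW42-R and 8.27 in OAW42. The CDKN1C level was close to that of CLDN5, so it does not show expression either. The 5 inhibitors had a median of 0.00, with 2 higher, 2 lower and 1 equal.

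Of the phosphatases CDKN3, CDC25A, CDC25B and CDC25C, the kinase WEE1 and the F-box protein SKP2, 5 of 6 were lower, beside 49.7% of all genes. CDC25A and WEE1 were lower by 0.01 only. CDKN3, a phosphatase that removes the activating phosphate of CDKs, had 8.41 in OAW42-R and 8.93 in OAW42, which was 1.43-fold lower (difference -0.52). SKP2, which targets p27, had 10.25 in OAW42-R and 10.51 in OAW42. The phosphatase CDC25C, which activates CDK1, differed by -0.22, and CDC25A (-0.01), CDC25B (0.09) and WEE1 (-0.01), which inhibits CDK1, were close to equal. The differences thus lay in CDKN3 and, to a smaller degree, SKP2 and CDC25C.

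RB1, the retinoblastoma gene, had 9.52 in OAW42-R and 9.61 in OAW42, and its relative RBL2 (p130) had 8.60 and 8.50. RBL1, which encodes p107, a relative made mainly in cycling cells, had 8.35 in OAW42-R against 8.76 in OAW42 (difference -0.41). Of the activator E2Fs, E2F1 (-0.13) and E2F3 (-0.19) were lower and E2F2 (0.11) higher. All 4 repressor and atypical E2Fs were lower, beside 49.7% of all genes. Their differences were -0.06 for E2F5, -0.15 for E2F4, -0.19 for E2F7 and -0.21 for E2F8. E2F7 read 7.80 in OAW42-R and 7.99 in OAW42, close to COL1A1, so its signal does not show expression. No E2F gene differed by more than 1.16-fold.

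The transcriptional branch was described by complex. In the CDK-activating kinase, which also belongs to the transcription factor TFIIH, CCNH was higher, with 8.25 in OAW42-R and 7.85 in OAW42, and its difference of 0.40 was the most positive of all members. Its kinase CDK7 had 8.59 in OAW42-R against 8.86 in OAW42 (difference -0.27), and the assembly factor MNAT1, named after its value was seen, differed by 0.22. The parts of 1 complex thus went both ways.

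In the kinase module of Mediator, the coactivator of RNA polymerase II, CDK19 had 8.42 in OAW42-R against 8.96 in OAW42 (difference -0.54), while its paralog CDK8 had 8.56 and 8.76, a difference of -0.20. The module's cyclin CCNC differed by -0.06 and its subunits MED12 and MED13, also named after their values were seen, by -0.03 and -0.06. Of these 5 genes, only the alternative kinase subunits differed by 0.20 or more.

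Cyclin K works with CDK12 and CDK13 in transcription elongation, including that of DNA repair genes. CCNK had 9.35 in OAW42-R and 9.60 in OAW42, CDK12 10.41 and 10.38, and CDK13 9.47 and 9.44. CDK12 was the 1 member with another cluster of its own, a dimmer one with 7.32 in OAW42-R and 6.81 in OAW42; the difference was 0.51 there and 0.03 in the brighter cluster, so the clusters disagreed. CCNT1 and CCNT2, the cyclins of the elongation factor P-TEFb, differed by 0.10 and 0.02. The splicing-linked L-type cyclins went apart, with CCNL1 at 0.20 and CCNL2 at -0.26.

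The remaining kinases are less tied to the cycle. CDK17, a PCTAIRE kinase with a still poorly known role, had 8.36 in OAW42-R against 9.00 in OAW42 (difference -0.64). Its relatives did not share this, CDK16 having 10.37 in OAW42-R and 10.44 in OAW42, and CDK18 8.36 and 8.20. CDK5, a kinase best known from neurons, differed by 0.17, CDK10 by -0.01, and CCNY, the cyclin of CDK14 and CDK16, by -0.01. CCNI, an atypical cyclin, had 10.79 in OAW42-R and 11.08 in OAW42, and CCNJ differed by 0.03. CDK14 was the 1 member below the floor, with 4.71 in OAW42-R and 4.81 in OAW42.

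**Figure D2:**
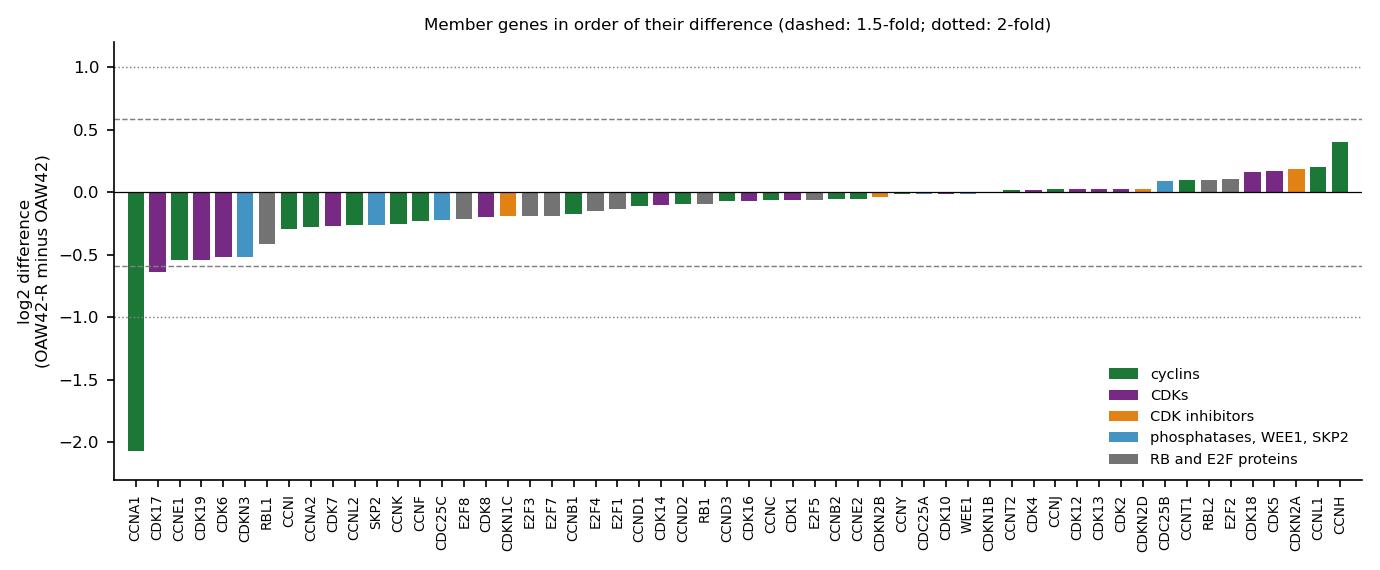
Log2 difference (OAW42-R minus OAW42, vertical axis) of each of the 56 measured genes in rising order, coloured by class, with dashed lines at 1.5-fold and dotted lines at 2-fold. CCNA1 (-2.07) passes 2-fold and CDK17 (-0.64) passes 1.5-fold, and CCNH (0.40) is at the other end.

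The lower members were not spread evenly. At -0.5 or lower lay 6 members, CCNA1, CDK17, CCNE1, CDK19, CDK6 and CDKN3, which was 10.9% of the 55, against 1.95% of all genes. Of these 6, CDK6 counted as above the floor only through OAW42, the line where it was higher, and it dropped out under stricter floors. Above 0.5 lay 0 members, against 2.77%. Nearest to 1.5-fold without reaching it were CCNE1 and CDK19, both at -0.54. A further 10 members (18.2%) lay between -0.3 and -0.2, against 6.27% of all genes. The cuts at 0.5, 0.3 and 0.2 were chosen after the values were seen. Within 0.1 of equality were 45.5% of members and 50.3% of all genes.

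**Figure D3:**
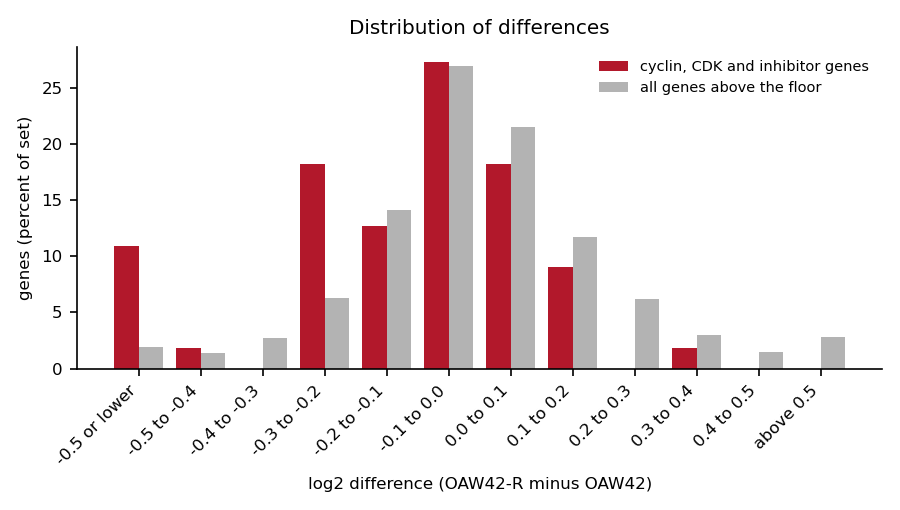
Percent of the 55 members (red) and of all 15910 genes above the floor (grey) in bins of the log2 difference (OAW42-R minus OAW42), each bin including its upper end. Members exceed all genes at -0.5 or lower (10.9% and 1.95%) and from -0.3 to -0.2 (18.2% and 6.27%), and 0 members lie above 0.4. The lowest bin includes CDK6, which was above the floor only through OAW42.

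Other cell cycle genes, in lists that hold no member, gave the setting. Among mitotic genes 18 of 21 had less signal in OAW42-R (median difference -0.14). TPX2, a spindle assembly factor, had 10.73 in OAW42-R against 11.36 in OAW42 (difference -0.63), the centromeric histone CENPA differed by -0.51 and the checkpoint kinase TTK by -0.40. This was the list with the highest share of lower genes, 85.7%, against 49.7% of all genes, although 1 gene alone passed 1.5-fold. The proliferation marker MKI67, chosen after its value was seen, differed by -0.08.

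E2F target genes of replication had a median of -0.05, with 15 of 22 lower (68.2%, against 49.7% of all genes). MCM5, a subunit of the replicative helicase, had 9.79 in OAW42-R against 10.60 in OAW42 (difference -0.81), and CDC45, another helicase component, differed by -0.57. GINS2, of the same helicase, went the other way (0.30). Most of the list was thus near equality, with 15 of 22 genes within 0.1.

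Of the WEE1 relatives and checkpoint kinases, 7 of 9 were lower (77.8%, against 49.7% of all genes), with a median of -0.15. PLK2, a polo-like kinase that p53 can induce, had 9.29 in OAW42-R against 10.00 in OAW42 (difference -0.71), PLK1, the mitotic polo-like kinase, differed by -0.27 and CHEK2, a DNA damage checkpoint kinase, by -0.26. In the list of E2F partners and the MuvB complex, 7 of 11 were lower (63.6%), with a median of -0.07. The MuvB complex assembles with E2F4 and the pocket protein p130 or p107 in quiescent cells. LIN54, its DNA-binding subunit, differed by -0.53, MYBL1 by -0.38 and the E2F partner TFDP2 by 0.36.

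Ubiquitin ligase genes of the SCF and APC/C type stayed between -0.23 and 0.25, with a median of -0.04 over 19 genes. CDC26, an APC/C subunit, differed by 0.25, UBE2S, which extends ubiquitin chains for it, by -0.23 and its inhibitor FBXO5 by -0.21. CDK activators and assembly factors had a median of 0.08, with 8 of 13 higher (61.5%, against 46.6% of all genes). The small CDK-binding protein CKS2 (0.32) and CABLES1 (0.30) were among them, while CABLES2 (-0.48) was lower. Of the other cyclins and CDKs, 5 of 9 above the floor were lower (55.6%, against 49.7% of all genes). Their median was -0.09, but 0.03 over 14 genes with no floor, with CDKL2 at 0.52, CCNJL at -0.32 and CCNG2 at -0.31. Genes of these 3 lists did not reach 1.5-fold.

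The list of mitogenic inputs to G1 had the most positive median, 0.32, with 8 of 14 higher (57.1%, against 46.6% of all genes). It also holds targets and feedback inhibitors of such signals, namely SPRY2 (0.52), ETV4 (0.49), SPRY4 (0.44), ETV5 (0.19) and DUSP6 (-0.21). These genes were named after their values were seen. EGR1, an immediate early transcription factor, had 11.22 in OAW42-R and 9.46 in OAW42, which was 3.39-fold higher (difference 1.76). FOS had 8.12 in OAW42-R against 7.01 in OAW42 (difference 1.11), and JUNB differed by 0.64. All 3 are immediate early genes, which growth factors induce within minutes. MYC, named after its value was seen, had 10.32 in OAW42-R and 10.35 in OAW42, and CCND1, a gene that the same signals induce, differed by -0.11.

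**Figure D4:**
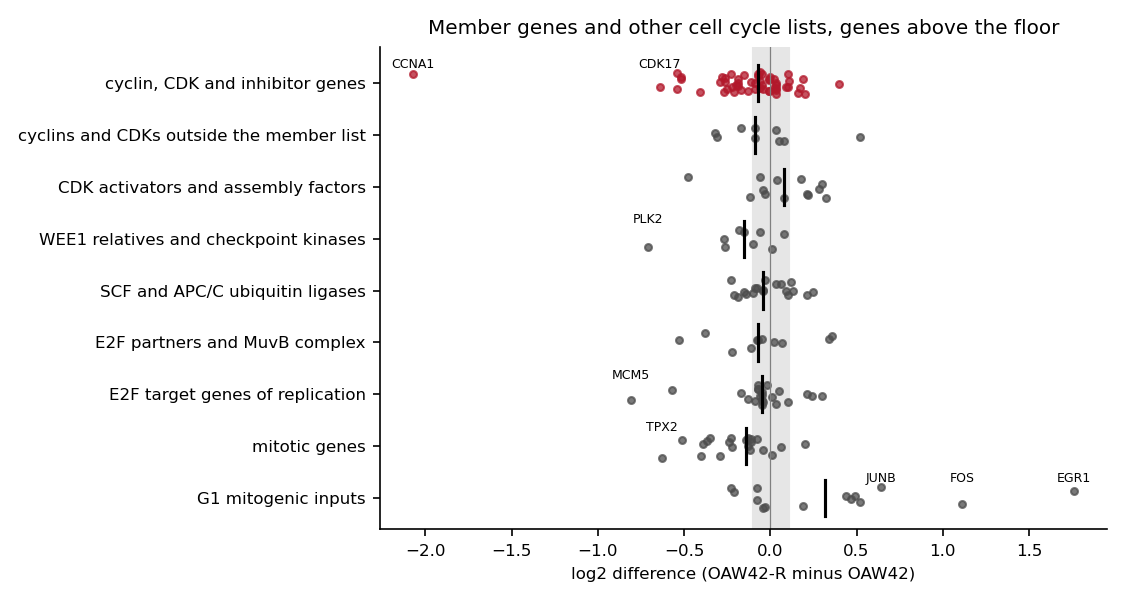
Log2 difference (OAW42-R minus OAW42, horizontal axis) of genes above the floor in the family (red) and in 8 other cell cycle lists (grey), with a bar at each median and a shaded band between the quartiles of all genes (-0.10 to 0.11). Mitotic genes lie mostly left of 0 (median -0.14), and EGR1, FOS and JUNB stand to the right.

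Position along the chromosome was examined with the 5 genes above the floor on each side of a member. CCNA1 stood apart from most of its neighbours, whose median was 0.06, but the next gene on chromosome 13, SPART (spartin), differed by -0.91, the most negative of the 10. Around CDK17 the 10 neighbours lay between -0.13 and 0.18. CCNE1 had 7 of 10 neighbours lower, beside 49.7% of all genes, with a median of -0.05. URI1, which is often co-amplified with CCNE1, differed by -0.25. The difference of these 3 members was therefore larger than that of any neighbour.

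CDK6 differed by -0.52 where its neighbours had a median of 0.07, although TFPI2, 3 genes away, differed by -2.79. The neighbours of CCND1 (median -0.02), CDKN2A (0.03), RB1 (0.07) and CDK4 (0.17) included no gene beyond 0.44 in size. For CDK4, 7 of 10 neighbours were higher, beside 46.6% of all genes, while CDK4 itself differed by 0.02.

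Some other members, picked after their values were seen, lay among genes that were lower with them, and others did not follow their neighbours. The counts below stand beside 49.7% of all genes that were lower. Around CDKN3 on chromosome 14, 8 of 10 neighbours were lower with a median of -0.27, among them FERMT2 (-0.80), WDHD1 (-0.59) and STYX (-0.58). CCNI on chromosome 4 had 8 of 10 lower neighbours and a median of -0.29, and CCNG2, the next gene, differed by -0.31. SKP2 on chromosome 5 had 9 of 10 lower and CCNK on chromosome 14 had 9 of 10. On chromosome 20, E2F1 had 10 of 10, between -0.29 and -0.07, and RBL1 had 8 of 10 lower with a median of -0.09. CDK13 went the other way, at 0.03 with 9 of 10 neighbours lower, as did CCNL1, at 0.20 with 6 of 10 lower. Lower members also lay among mostly higher neighbours, such as CDK8 (-0.20, 8 of 10 higher) and E2F4 (-0.15, 7 of 10 higher). Over all 56 members the median of the neighbours ran from -0.29 for CCNI to 0.21 for CDK14.

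**Figure D5:**
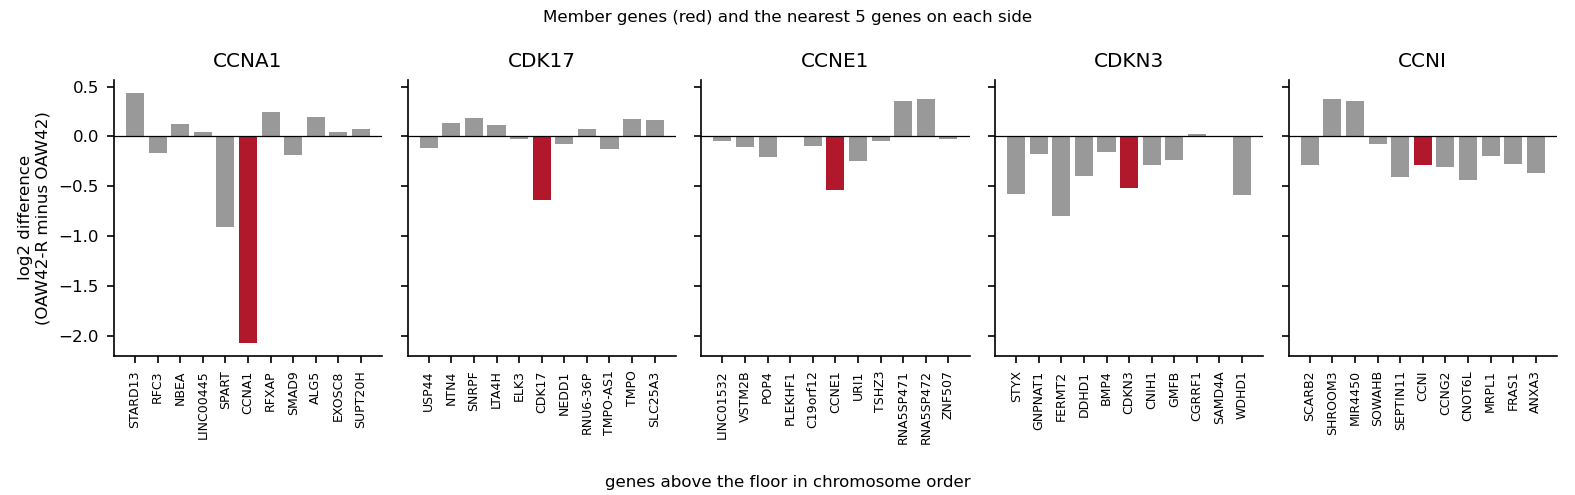
Log2 difference (OAW42-R minus OAW42, vertical axis) of 5 members (red) and of the nearest 5 genes above the floor on each side (grey) in chromosome order. CCNA1, CDK17 and CCNE1 exceed their neighbours, whereas most neighbours of CDKN3 and CCNI are lower too.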

How the data were processed

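RNA of OAW42-R and OAW42 was measured on 1 array each. The authors deposited log2 signals per transcript cluster, made by RMA (background correction, quantile normalisation, probe summary) over their whole set of samples in Expression Console; its version and the annotation release are not given in the sources used here. A change in the RNA content of cells is not visible after RMA.

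Clusters with 1 platform symbol (23780 of 67524) were named, symbols were updated through RefSeq genes of GRCh38.p14, and chromosome Y genes and XIST were left out. A gene's brightest cluster on average represented it. Gene order came from the same table, and start windows from RefSeq. The members and lists were chosen with earlier results of these data known. Named genes were all members, up to 3 per other list with the largest difference, markers and neighbours. MNAT1, MED12, MED13, MKI67, MYC, SPRY2, ETV4, SPRY4, ETV5 and DUSP6 were chosen after their values were seen. Median differences and counts at 1.5-fold and 2-fold were computed without a test. Alternatives concerned array scaling, floor and choice of cluster. Steps were tested on simulated data. Figures were drawn with matplotlib 3.10.9, loess was run in statsmodels 0.14.6 and tables were handled with pandas 2.3.3 on Python 3.11.15.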

Additional observations from a re-analysis of the deposited data

How the results depend on the processing

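Leaving out a replicate was not possible, since each line has 1 array. No paired analysis was possible because the values come from no test and each line has 1 sample. Under centring, quantile normalisation, loess, no floor, a floor at the 75th percentile, a floor on the mean of both arrays, the mean of a gene's clusters and the cluster with the largest difference, the family had 1 gene at 2-fold lower, 2 at 1.5-fold lower and 0 at 1.5-fold higher. Its median stayed between -0.10 and -0.07, and 35 to 41 members were lower (67.3% to 74.5%), beside 47.1% to 58.9% of all genes; both shares were highest with quantile normalisation. CCNA1 stayed between -2.10 and -2.07 and CDK17 between -0.67 and -0.64. CDK6 gave no value with the floor at the 75th percentile or on the mean. Of the list medians, 2 moved by 0.1 or more. That of the other cyclins and CDKs changed sign to 0.03 over 14 genes with no floor, against -0.09 over 9. That of the mitogenic inputs to G1 was 0.46 over 12 genes with the floor at the 75th percentile. Medians of the inhibitors (-0.02 to 0.02) and the transcriptional and other cyclins (-0.02 to 0.01) lay on both sides of 0 and have no direction. That of CDK1, CDK2, CDK4 and CDK6 stayed between -0.04 and -0.02 with all 4 genes and was 0.02 where CDK6 dropped out. The number of arrays limits the precision.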
